A study of Mus musculus with 16 samples.

Results

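Cultured mouse macrophages that had received the cytokine TNFα for 24 h were compared, across every expressed gene, with macrophages that had received DMSO. The cells were bone marrow-derived macrophages whose genotype is labelled B6.129P2-Apoetm1Unc/J, a line that lacks apolipoprotein E, so both groups carry that deletion. Their strain is given as C57BL/6J. They were grown from marrow in L929-cell-conditioned medium, a source of CSF1, rested without it, and stimulated in medium without serum. The TNFα group (50 ng/ml, 24 h) has 4 libraries and the DMSO group has 4 libraries, which makes 8 of the 16 libraries in the series. The other 8 are cells given the class IIa histone deacetylase inhibitor TMP195 or the IKK2 inhibitor TPCA-1 for 1 h before the same TNFα stimulation. They entered the model to estimate the spread, and also counted in the scaling of libraries and the choice of genes to test. The labels give neither the animals' age nor whether replicates came from separate animals or cultures, so p-values speak only for the scatter among libraries, which may be technical. They also do not say if DMSO was also added to the cells that got TNFα alone.

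TNFα is a trimeric cytokine that macrophages both make and sense. Its binding to TNF receptor 1 assembles a complex of adaptor proteins and ubiquitin ligases that activates the IKK kinases and the MAP kinases; IKK removes the inhibitory IκB proteins from NF-κB dimers, which then enter the nucleus beside AP-1. Many of the early target genes encode inhibitors of the same pathway, so the state after a day of exposure is one in which inducers and inhibitors act together. In macrophages TNFα is known for inflammatory cytokine secretion, altered metabolism and, depending on context, survival or cell death.

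Reads counted on genes came to 18562773, 20322934, 31596572 and 20939386 in the TNFα libraries, against 18852724, 19638173, 21844693 and 18794986 in the DMSO libraries. Levels are given as counts per 1000000 counted reads (CPM), in the order of the replicate numbers 1 to 4. Apoe itself had 5, 1, 11 and 4 reads in the TNFα libraries, against 7, 5, 7 and 3 reads in the DMSO libraries, and was under the filter on low counts. The first principal component held 61.3% of the variance and separated the groups, and the second, with 16.2%, set both libraries numbered 4 apart from the other 6. All 12 listed macrophage markers passed the filter, and lysozyme 2 (Lyz2) had 15124, 10056, 15540.3 and 15992 CPM with TNFα, against 13244, 9266, 14567 and 15607 CPM with DMSO. Changes among these 12 are given below, with the markers of other lineages. Many markers of other cells were at 0: 8 of the 16 listed neutrophil genes, among them Ly6g, Mpo, Elane, Ctsg and Ngp, had 0 reads in all 8 libraries, as did Cd209a among the dendritic cell genes, Col3a1 and Tek among the stromal and endothelial genes and 9 of the 12 mast cell, eosinophil and basophil genes.

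Of 54838 genes in the count files, 12612 had enough reads to be tested. A gene is called when its adjusted p is under 0.05 in edgeR's quasi-likelihood test, and changes are log2 fold changes of TNFα over DMSO with their standard errors (SE, 4 libraries against 4). By this rule 23.4% of the tested genes were called: 1377 genes (10.9%) were higher with TNFα and 1568 (12.4%) were lower. Changes of at least 2-fold were found for 523 higher and 719 lower genes, which are 4.15% and 5.7% of those tested and together 9.85%. At 16-fold the order turned round, with 51 genes higher and 15 lower. The 4 TNFα libraries lay wholly above or wholly below the 4 DMSO libraries for 3433 genes (27.2%). TNFα and DMSO libraries of equal number deviated together from their group means. A fit that pairs them (the replicate block) called 4034 genes (32.0%), 1901 higher (15.1%) and 2133 lower (16.9%), and all 2945 genes called without the block were among them. Counts in the lists below are to be read beside these shares, or beside 10.9% and 12.4% without the block.

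The genes that were not called are of 2 kinds. For 5089 of the 9667 uncalled genes the 95% interval of the change lay wholly within 1.5-fold in either direction. For the other 4578 it reached past 1.5-fold, so this fit did not exclude a change of that size. The replicate block, described above, called 803 of these 4578. Lower calls were commonest among weakly expressed genes: of 3549 genes with 1 to 10 CPM, 17.8% were lower and 7.61% higher. Higher calls were commonest among well expressed genes: of 1682 genes with 100 to 1000 CPM, 18.7% were higher and 9.39% lower. In reads, the genes called higher took 22.7 ± 0.706% of a TNFα library and 13.9 ± 0.694% of a DMSO library, and those called lower took 8.53 ± 0.116% of a TNFα library and 14.8 ± 0.805% of a DMSO library (SD, n = 4 each). That difference in share describes genes chosen by the same test and is not further evidence.

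**Figure D1:**
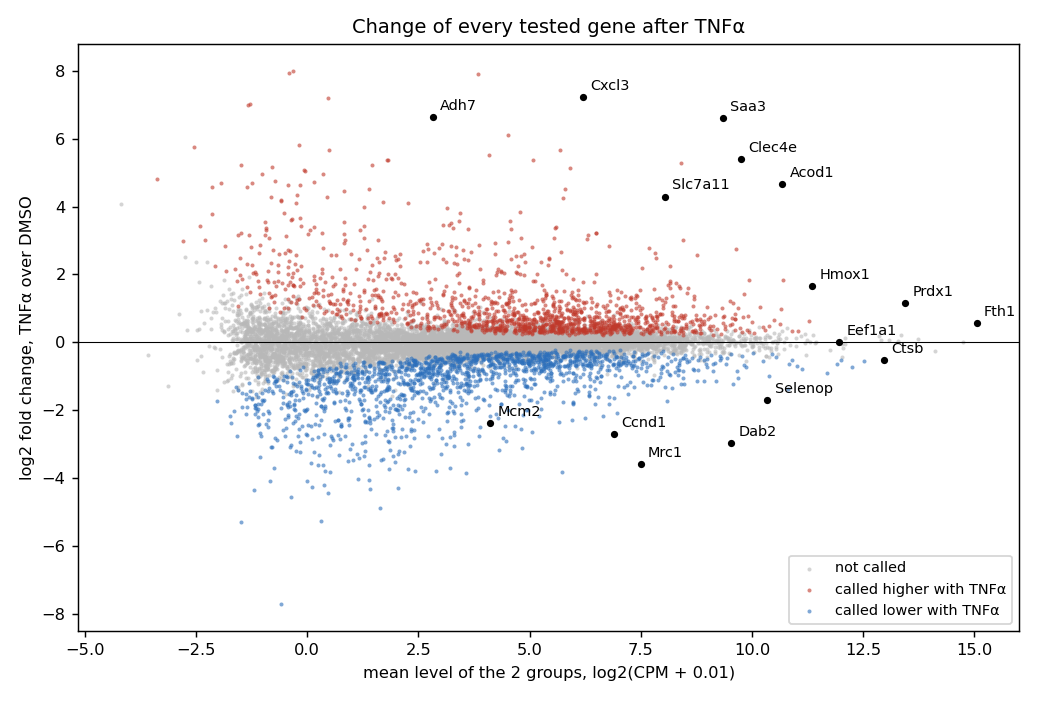
Every tested gene (n = 12612), with its mean level in log2(CPM + 0.01) across and its log2 fold change of TNFα over DMSO upward. Red points were called higher with TNFα (1377), blue points lower (1568) and grey points not called; 16 of the genes named in the text are marked in black, among them Cxcl3 at 7.22 and Mrc1 at -3.58.

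Some genes with a large difference in CPM had a modest fold. Ferritin heavy chain (Fth1), which stores iron, had 44172, 36621, 48677 and 32808 CPM with TNFα, against 27529, 27747, 29915 and 24667 CPM with DMSO. It rose by 0.56 ± 0.16 (adjusted p = 0.0139); without the TNFα library numbered 3 its adjusted p was 0.0558 and the call was lost. Peroxiredoxin 1 (Prdx1), which reduces peroxides, had 17804, 16168, 16551 and 11426 CPM with TNFα, against 6979, 9952, 6337 and 4393 CPM with DMSO, and rose by 1.16 ± 0.22 (adjusted p = 0.000769) with all 4 TNFα libraries above the DMSO libraries. Both genes have many processed pseudogenes, and reads that map to several copies were not counted. Cybb, the catalytic subunit of the phagocyte NADPH oxidase, had 2977, 2267, 2756 and 2337 CPM with TNFα, against 846, 598, 714 and 727 CPM with DMSO. It rose by 1.84 ± 0.27 (adjusted p = 6.52e-05), and the lowest TNFα library was above the highest DMSO library. Saa3, an acute-phase serum amyloid protein, spread widely among the TNFα libraries, with 1176, 403, 1883 and 1671 CPM with TNFα, against 8.88, 10.6, 16.2 and 16.8 CPM with DMSO. Saa3 rose by 6.61 ± 0.61 (adjusted p = 5.23e-07) even so, the lowest TNFα value being far above every DMSO value. On the losing side stood the lysosomal protease cathepsin B, the lysosomal activator protein prosaposin and the endocytic adaptor Dab2. Ctsb had 6915, 6279, 6921 and 6271 CPM with TNFα, against 9885, 8866, 10721 and 8776 CPM with DMSO, and Psap had 4539.8, 4493, 5106 and 4960.3 CPM with TNFα, against 7078, 6474, 6933 and 7485 CPM with DMSO. Ctsb fell by 0.54 ± 0.10 (adjusted p = 0.000735) and Psap fell by 0.55 ± 0.11 (adjusted p = 0.00095), both without overlap between the groups. Dab2 had 191, 143, 171 and 172 CPM with TNFα, against 1433, 1066, 1450.3 and 1331 CPM with DMSO and fell by 2.96 ± 0.20 (adjusted p = 2.26e-08). Selenop, which encodes the selenium carrier selenoprotein P, had 761, 614, 561 and 515 CPM with TNFα, against 2474, 1452, 2206 and 1857 CPM with DMSO and fell by 1.7 ± 0.22 (adjusted p = 1.96e-05). The matrix and cytokine-like protein osteopontin (Spp1) fell by 1.38 ± 0.28 (adjusted p = 0.00128), Gpnmb, a glycoprotein of lysosome-rich macrophages, fell by 0.72 ± 0.18 (adjusted p = 0.00801), the galectin Lgals3 fell by 0.80 ± 0.17 (adjusted p = 0.00241) and the receptor of the complement fragment C3a, C3ar1, fell by 0.90 ± 0.14 (adjusted p = 0.000116). Lipoprotein lipase (Lpl) fell by 0.53 ± 0.17 (adjusted p = 0.0344). That call was lost without the DMSO library numbered 1, 2 or 3, without the TNFα library numbered 3 or 4, and with both libraries numbered 4 left out, the highest adjusted p being 0.102.

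Of the 2 receptors of TNFα, 1 was called. Tnfrsf1a, the death domain receptor found on most cells, had 135, 130.4, 143 and 190.3 CPM with TNFα, against 141, 131, 128 and 182 CPM with DMSO. The groups overlapped, and the change of 0.04 ± 0.15 had an adjusted p of 0.891. Tnfrsf1b, the second receptor, which recruits TRAF2 directly, had 732, 717, 933 and 1047 CPM with TNFα, against 409, 366, 389 and 532 CPM with DMSO. It rose by 1.02 ± 0.16 (adjusted p = 0.000122), and every TNFα library was above every DMSO library. Whether the responses of the pair differ was not tested. Tnf itself had 497, 548, 609.9 and 719.7 CPM with TNFα, against 219, 220.2, 223 and 309.6 CPM with DMSO and rose by 1.29 ± 0.16 (adjusted p = 1.45e-05). Of the 27 members of the receptor complex and its ubiquitin-editing enzymes, all of them tested, 10 were called higher and 0 lower, against 10.9% and 12.4% of all tested genes, with a list median of 0.19 against 0.00 over all genes. At an unadjusted p under 0.05, and by DESeq2 or limma-voom, 0 were lower as well. Traf1, an adaptor of TNF receptor 2, had 71.2, 75.2, 87.3 and 99.7 CPM with TNFα, against 8.93, 9.46, 8.09 and 13 CPM with DMSO and rose by 3.08 ± 0.17 (adjusted p = 2.75e-09). The ubiquitin-editing enzyme A20 (Tnfaip3), which ends signalling, had 146, 172, 178 and 169.9 CPM with TNFα, against 73.5, 81.7, 72.7 and 84.4 CPM with DMSO and rose by 1.09 ± 0.13 (adjusted p = 5.84e-06). Birc3, a ubiquitin ligase of the complex, rose by 1.27 ± 0.14 (adjusted p = 2.57e-06). In the same list, the A20 partner Tnip1 rose by 0.74 on the log2 scale and the kinase gene Map3k7, which encodes TAK1, by 0.30 (both chosen after their values were seen).

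Among 22 genes for IKK subunits, NF-κB subunits and their inhibitors, 8 were higher, 0 were lower, also at an unadjusted p under 0.05 and by DESeq2 or limma-voom, and the median change was 0.24. With both libraries numbered 4 left out, 5 of these 8 were called. Nfkbia and Nfkbie, both in the list, encode inhibitors. Nfkbia, which encodes IκBα, had 376, 374, 442 and 540.3 CPM with TNFα, against 124, 125, 121 and 196 CPM with DMSO. It rose by 1.61 ± 0.20 (adjusted p = 1.14e-05), with no overlap between groups, although the DMSO library numbered 4 stood above the other DMSO libraries. Nfkbie, which encodes IκBε, had 50.4, 50.4, 62.4 and 67.3 CPM with TNFα, against 12.1, 15.9, 10.6 and 18.1 CPM with DMSO and rose by 2.02 ± 0.21 (adjusted p = 1.81e-06). Of the NF-κB subunits, Nfkb2, the precursor of p52 in the noncanonical branch, rose by 1.18 on the log2 scale, whereas Rela, which encodes the p65 subunit, changed by 0.24 with an adjusted p of 0.317 and Nfkb1 by 0.12 with an adjusted p of 0.514 (these 3 were chosen after their values were seen). To show the element that NF-κB is known to bind, 2 promoter stretches are printed, both from RefSeq on build GRCm38.p6 and 5′ to 3′ on the gene's strand, with the matches to the κB consensus in capitals. They are those of Nfkbie (chr17:45555539-45555658, plus strand) and of the chemokine Cxcl2 (chr5:90903747-90903866, plus strand), each starting upstream of the annotated start site.
Nfkbie: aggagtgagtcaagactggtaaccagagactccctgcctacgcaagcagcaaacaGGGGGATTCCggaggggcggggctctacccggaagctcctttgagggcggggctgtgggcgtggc
Cxcl2: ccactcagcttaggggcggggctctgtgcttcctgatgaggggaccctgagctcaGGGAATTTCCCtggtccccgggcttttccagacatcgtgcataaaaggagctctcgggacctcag
The Nfkbie match starts 106 bases before the start site, and in Cxcl2 2 overlapping matches start 97 bases before it. Searched on both strands in windows from 250 bases before to 50 after the start, the κB consensus was in 31.2% of the 16 promoters found for the IKK and NF-κB list, in 33.3% of 15 chemokine promoters, in 9.21% of 391 promoters of genes at least 2-fold higher, in 9.68% of 31 ribosomal protein, 9.26% of 54 interferon list and 8.33% of 72 mitosis promoters, in 4.9% of 9289 promoters of tested genes and in 4.36% of all 27025 promoters in the table. A match is a sequence description and not a site of binding.

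Feedback inhibitors of other branches moved in both directions: of 26 tested MAP kinase phosphatases, SOCS proteins and RNA-decay factors, 9 were higher and 6 lower. Socs3, which inhibits cytokine receptor signalling through JAK kinases, had 27.8, 21.3, 37 and 45.1 CPM with TNFα, against 3.68, 3.4, 3.49 and 6.66 CPM with DMSO. It rose by 2.93 ± 0.38 (adjusted p = 1.92e-05), again with the DMSO library numbered 4 above its group but below every TNFα library. Zc3h12c, of the regnase family of RNA-cleaving proteins, rose by 0.99 ± 0.14 (adjusted p = 5.12e-05). Zfp36l1, which binds AU-rich messages and promotes their decay, had 8.13, 9.37, 8.31 and 6.95 CPM with TNFα, against 48.5, 33, 66.4 and 44.4 CPM with DMSO and fell by 2.55 ± 0.20 (adjusted p = 8.83e-08). Of 20 AP-1, EGR and ATF factors, 7 were higher and 0 lower; 1 was lower at an unadjusted p under 0.05 and by limma-voom, 0 by DESeq2 and 2 with the replicate block. The small Maf protein Mafg rose by 0.89 ± 0.18 (adjusted p = 0.00138) and the Fos family member Fosl2 rose by 0.83 ± 0.18 (adjusted p = 0.00282). The AP-1 element TGANTCA, searched on both strands, was in 12.8% of the 391 promoters of genes at least 2-fold higher, in 4.89% of those of tested genes and in 7.91% of all promoters in the table. It was in 6.95% of 547 promoters of genes at least 2-fold lower. Among the lists, it was in 26.7% of 15 chemokine and 24.1% of 54 interferon list promoters, and in 2.22% to 18.8% of the others searched. The naming rule prints for it the promoter of Ezr (chr17:6782781-6782867, minus strand, GRCm38.p6), whose match starts 32 bases before the start site.
Ezr: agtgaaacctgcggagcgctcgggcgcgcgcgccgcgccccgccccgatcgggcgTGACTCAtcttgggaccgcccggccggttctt
Ezr encodes ezrin, which ties actin to the membrane, and had 126, 152, 147 and 145 CPM with TNFα, against 12.6, 22.9, 13.8 and 15 CPM with DMSO. It rose by 3.15 ± 0.19 (adjusted p = 6.03e-09), without overlap.

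Transcription factors of macrophage identity had calls in both directions. Of 49 tested, 10 were higher (20.4%) and 8 lower (16.3%), against 10.9% and 12.4% of all tested genes. Without the TNFα library numbered 3, or without the DMSO library numbered 3, the higher ones numbered 6. Spic, an ETS factor of iron-recycling macrophages, had 45.4, 49.3, 36.5 and 31.3 CPM with TNFα, against 3.41, 7.05, 5.19 and 5.36 CPM with DMSO and rose by 2.95 ± 0.24 (adjusted p = 1.53e-07). The MiT-family factor Tfec rose by 1.4 ± 0.17 (adjusted p = 1.06e-05). Among the lower genes were Pparg, a lipid-sensing nuclear receptor, at a log2 fold change of -1.28, and Mef2c at -1.13, while Cebpb, a factor of the inflammatory and emergency response, was higher by 1.5 (log2 fold changes, chosen after their values were seen). Among 39 epigenetic regulators, 4 were higher (10.3%, near the 10.9% of all tested genes) and 8 lower (20.5%, against 12.4%). The higher ones were 2 without the DMSO library numbered 3 or the TNFα library numbered 4. Hdac9, the class IIa deacetylase in the title of the series, fell by 1.66 ± 0.18 (adjusted p = 3.45e-06), the histone H3K9 methyltransferase Suv39h1 fell by 0.80 ± 0.12 (adjusted p = 8.18e-05), and Arid5b, a partner of a histone demethylase, rose by 0.91 ± 0.18 (adjusted p = 0.000952).

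Chemokines went both ways. Of 21 tested, 9 were higher and 5 lower. Those higher included CXCR2 ligands, which draw neutrophils, and Cxcl2 had 513, 763, 725 and 643 CPM with TNFα, against 14.3, 20, 14.5 and 19.8 CPM with DMSO. Cxcl2 rose by 5.27 ± 0.28 (adjusted p = 1.67e-09). Cxcl3 had 129, 187, 125 and 141 CPM with TNFα, against 0.736, 0.69, 0.492 and 2.03 CPM with DMSO and rose by 7.22 ± 0.49 (adjusted p = 2.26e-08). Ccl6, a CC chemokine of mouse myeloid cells, had 46.3, 38.4, 52.5 and 36.5 CPM with TNFα, against 108, 81.5, 133 and 100.02 CPM with DMSO. It fell by 1.28 ± 0.22 (adjusted p = 0.000318), all TNFα libraries being below all DMSO libraries. Ccl2, the ligand of CCR2 on monocytes, had 90.3, 37.7, 81.9 and 84.8 CPM with TNFα, against 162, 118, 161 and 119.6 CPM with DMSO. Its groups did not overlap, but the change of -0.93 ± 0.34 missed the threshold (adjusted p = 0.0601) and was called by DESeq2 (adjusted p = 0.0355), by limma-voom, without a filter on low counts, in the 8 libraries alone, without 1 library of the TPCA-1 group and with the replicate block (adjusted p = 0.000829). Cxcl10 and Ccl5, which attract T cells, rose by 2.38 and 2.05 on the log2 scale, and Ccl3 by 0.74, whereas Ccl4, a close relative of Ccl3, changed by -0.07 with an adjusted p of 0.845 (these 4 were chosen after their values were seen). The count of 5 lower chemokines was 2 or 3 without the DMSO library numbered 1 or 3 or the TNFα library numbered 2, 3 or 4, and 2 with both libraries numbered 4 left out. S100a8, a calcium-binding protein listed among the neutrophil markers, was at 66.0 CPM with TNFα and 1.56 CPM with DMSO (means, chosen after its values were seen), while the defining neutrophil genes above had no reads; the summed neutrophil list was 146 to 180.2 CPM with TNFα and 55.9 to 96.4 CPM with DMSO. Its part in the chemokine values was not tested.

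Cytokines and growth factors also went both ways, with 10 of 39 tested higher and 13 lower. Il1a, an alarmin of the interleukin-1 family, had 47.9, 55.7, 44.3 and 27.1 CPM with TNFα, against 3.47, 8.38, 3.49 and 2.03 CPM with DMSO. Il1b, its relative that is secreted after cleavage, had 15.2, 8.64, 17.6 and 19.6 CPM with TNFα, against 1.1, 1.38, 1.07 and 2.03 CPM with DMSO. Il1a rose by 3.33 ± 0.34 (adjusted p = 1.7e-06) and Il1b rose by 3.45 ± 0.44 (adjusted p = 1.43e-05), neither with overlap between the groups. Il1f9, which encodes IL-36γ, had 48.8, 54.1, 52.7 and 49.5 CPM with TNFα, against 2.47, 6.95, 2.46 and 2.34 CPM with DMSO and rose by 3.85 ± 0.31 (adjusted p = 1.36e-07). Il6 stayed low in both groups, with 1.76, 0.834, 1.77 and 1.3 CPM with TNFα, against 0.0525, 0.0986, 0.0894 and 0.208 CPM with DMSO. It rose by 3.6 ± 0.55 (adjusted p = 9.18e-05), and the DMSO levels rest on 1, 2, 2 and 4 reads, so that the ratio of the groups' pooled CPM, 12.4, has an exact 95% counting interval of 6.34 to 27.8. Csf3, the neutrophil growth factor G-CSF, had 13, 14, 36 and 12 reads with TNFα and 0 reads in all 4 DMSO libraries. Set against a floor of 3 reads over the DMSO group, it was at least 21.6-fold higher (chosen after its values were seen). Lower were Gas6, the bridge between dying cells and the receptor MERTK, with 41.5, 32.3, 38.6 and 49.6 CPM with TNFα, against 118, 88.9, 134 and 139 CPM with DMSO; the TNF relative TWEAK (Tnfsf12), which fell by 1.1 ± 0.17 (adjusted p = 9.47e-05); and Il16, which fell by 1.45 ± 0.23 (adjusted p = 0.000165). Gas6 fell by 1.57 ± 0.17 (adjusted p = 2.57e-06). Insulin-like growth factor 1 (Igf1), a trophic product of resting macrophages, fell by 1.24 on the log2 scale with an adjusted p of 0.0016 (chosen after its values were seen).

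**Figure D2:**
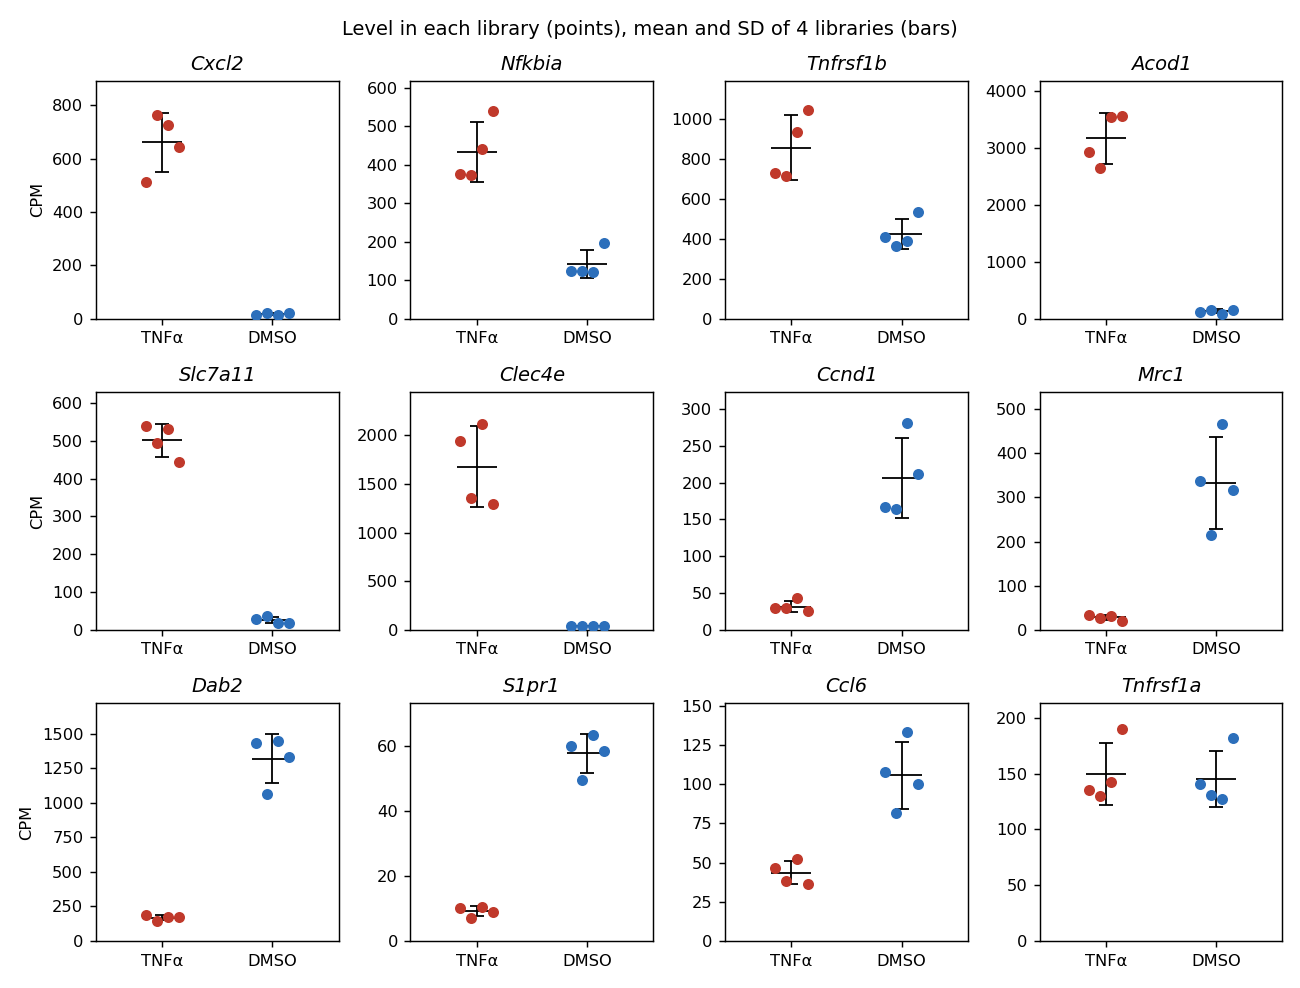
Level of 12 genes in CPM, linear axes from 0, in the TNFα libraries (red, left) and DMSO libraries (blue, right), with mean and SD of 4 libraries. Cxcl2, Nfkbia, Tnfrsf1b, Acod1, Slc7a11 and Clec4e were called higher and did not overlap; Ccnd1, Mrc1, Dab2, S1pr1 and Ccl6 were called lower and did not overlap; Tnfrsf1a overlapped and was not called.

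Proteins that act outside the cell followed no single direction. Of 33 tested proteases, protease inhibitors and matrix genes, 14 were higher and 8 lower. With at least 10 counts required in every library, which drops members near 0 in either group, 8 were called higher. That fit called 1198 of 11003 genes higher. Slpi, an inhibitor of neutrophil elastase, had 29.9, 27.1, 37.8 and 38.2 CPM with TNFα, against 0.63, 0.69, 0.402 and 1.2 CPM with DMSO, and Bmp1, which processes procollagen, had 11.9, 16.6, 17.9 and 20.3 CPM with TNFα, against 0.946, 1.58, 1.3 and 2.29 CPM with DMSO. Slpi rose by 5.52 ± 0.39 (adjusted p = 3.32e-08) and Bmp1 rose by 3.45 ± 0.24 (adjusted p = 2.29e-08), with wide gaps between the groups. The gelatinase Mmp9 was also higher, by 4.26, with an adjusted p of 5.71e-06 (chosen after its values were seen). Timp2, an inhibitor of matrix metalloproteinases, had 129, 118, 129.6 and 125 CPM with TNFα, against 429, 333, 467 and 446 CPM with DMSO and fell by 1.74 ± 0.14 (adjusted p = 9.34e-08). Complement had 2 higher and 5 lower among 18 tested genes, with 1 higher when both libraries numbered 4 were left out. C3, the central component, had 841, 576, 805 and 749 CPM with TNFα, against 133, 93.5, 116 and 153 CPM with DMSO and rose by 2.58 ± 0.29 (adjusted p = 3.94e-06), whereas C1qa, a subunit of the initiator C1q, had 51.5, 49.7, 50.1 and 64.3 CPM with TNFα, against 100.1, 92.8, 102 and 137 CPM with DMSO and fell by 1.01 ± 0.14 (adjusted p = 3.46e-05); the C1qc subunit fell by 1.14 ± 0.15 (adjusted p = 2.68e-05). In the prostaglandin pathway, 6 of 20 tested genes were higher and 3 lower. The inducible cyclooxygenase Ptgs2 rose by 5.15 ± 0.28 (adjusted p = 2.75e-09). The enzyme that makes PGE2 from its product, Ptges, had 20.3, 15.9, 22.5 and 19.4 CPM with TNFα, against 2.57, 4.19, 3.44 and 4 CPM with DMSO and rose by 2.46 ± 0.21 (adjusted p = 2.03e-07). The enzyme that makes PGD2, Hpgds, had 105, 91.7, 98.3 and 75.6 CPM with TNFα, against 247, 188, 297 and 200.4 CPM with DMSO and fell by 1.33 ± 0.17 (adjusted p = 1.39e-05). Neither Ptges nor Hpgds overlapped between the groups.

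Receptors for microbes and debris went both ways. Among 29 C-type lectins, Siglecs and scavenger receptors, 8 were higher and 11 lower. Clec4e, which encodes Mincle, a receptor for mycobacterial glycolipid, had 1946, 1355, 2119 and 1299 CPM with TNFα, against 40, 34.2, 43.5 and 40.4 CPM with DMSO and rose by 5.41 ± 0.46 (adjusted p = 2.03e-07). Clec4e, Clec4d and Clec4n lie next to each other on chromosome 6 and were all called higher, by 5.41, 0.83 and 0.89 (log2 fold changes, the last 2 chosen after their values were seen). The mannose receptor Mrc1 had 33.8, 26.2, 31.7 and 19.7 CPM with TNFα, against 336, 214, 467 and 316 CPM with DMSO and fell by 3.58 ± 0.29 (adjusted p = 1.25e-07). The inhibitory Siglec Cd22 fell by 1.27 ± 0.13 (adjusted p = 2.03e-06). Toll-like receptors and their adaptors gave 3 higher and 7 lower of 23. Tlr9, an endosomal receptor for CpG DNA, had 13.1, 11.8, 14.4 and 19.5 CPM with TNFα, against 55.5, 32.3, 42.5 and 63.3 CPM with DMSO, and Tlr6, a surface partner of TLR2, had 71.7, 62, 59.6 and 50.7 CPM with TNFα, against 42.8, 34.2, 36 and 31.3 CPM with DMSO. Tlr9 fell by 1.72 ± 0.23 (adjusted p = 2.71e-05), Ly86, the partner of the TLR4-like protein CD180, fell by 1.3 ± 0.18 (adjusted p = 3.3e-05), and Tlr6 rose by 0.76 ± 0.14 (adjusted p = 0.000499). The 7 lower ones became 3 or 4 without the DMSO library numbered 1 or 3 or the TNFα library numbered 2, 3 or 4, 4 without both libraries numbered 4, and the 3 higher ones became 6 with the replicate block. Of 34 Fc, TREM, CD300, LILR and SIRP receptors, 6 were higher and 11 lower. Trem2, a lipid-sensing receptor of tissue macrophages, had 99.1, 115, 138 and 114 CPM with TNFα, against 257, 251, 345 and 269.7 CPM with DMSO, and Treml4 had 13, 16.7, 17.3 and 24.1 CPM with TNFα, against 1.16, 4.39, 1.92 and 2.6 CPM with DMSO. Trem2 fell by 1.27 ± 0.18 (adjusted p = 3.43e-05), Treml4 rose by 2.82 ± 0.33 (adjusted p = 5.87e-06), and Cd300lf, an inhibitory receptor for phospholipids, fell by 2.08 ± 0.28 (adjusted p = 2.96e-05). Reads of the lectin, CD300 and PILR families can be lost where members share sequence.

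Genes for taking up dying cells and for alternative activation were mostly lower, with 2 of 22 tested members higher and 12 lower, and all 14 calls held in each fit that left out 1 library. The list took 0.218 ± 0.00418% of the reads with TNFα and 0.499 ± 0.0556% with DMSO (SD, n = 4 each). Selenop, a strongly expressed member, weighs heavily in this share, which was not computed without it. Mrc1, Gas6 and Selenop, described above, are members, and so is Mertk, the receptor kinase that GAS6 activates, which fell by 1.30 on the log2 scale with an adjusted p of 0.000617 (chosen after its values were seen). The transglutaminase Tgm2 went the other way, with 60.4, 64.2, 81.7 and 76.4 CPM with TNFα, against 25.6, 33.6, 33 and 29.3 CPM with DMSO, and rose by 1.22 ± 0.19 (adjusted p = 0.000117).

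Genes of G protein signalling were lower more often than higher. Of 43 G protein-coupled receptors, 11 were higher and 15 lower, and 23 were lower with the replicate block, which called 16.9% of all genes lower. S1pr1, the receptor for sphingosine 1-phosphate, had 10.2, 7.16, 10.5 and 8.88 CPM with TNFα, against 59.9, 49.3, 63.2 and 58.3 CPM with DMSO. Gpr155, a lysosomal cholesterol sensor, had 5, 3.93, 4.73 and 4.01 CPM with TNFα, against 26.6, 20.7, 28.9 and 23.4 CPM with DMSO. S1pr1 fell by 2.65 ± 0.21 (adjusted p = 1.13e-07) and Gpr155 fell by 2.49 ± 0.17 (adjusted p = 2.54e-08), with every TNFα library far below the DMSO libraries. P2ry12, an ADP receptor best known from microglia and platelets, fell by 4.07 on the log2 scale, at 0.297 CPM with TNFα and 4.92 CPM with DMSO (means, chosen after its values were seen). Gpr84, a receptor for medium-chain fatty acids, had 75.8, 65, 100.2 and 109.9 CPM with TNFα, against 4.94, 8.03, 6.66 and 13.9 CPM with DMSO and rose by 3.39 ± 0.34 (adjusted p = 1.31e-06). Of 32 regulators of G proteins, adenylyl cyclases and phosphodiesterases, 4 were higher and 15 lower. Rgs2, which shortens Gq signals, had 9.95, 7.51, 7.23 and 3.76 CPM with TNFα, against 107, 109, 130.01 and 52.6 CPM with DMSO, and the adenylyl cyclase Adcy3 had 1.42, 1.37, 1.77 and 0.965 CPM with TNFα, against 11.2, 7.84, 9.16 and 6.35 CPM with DMSO. Rgs2 fell by 3.81 ± 0.36 (adjusted p = 7.26e-07) and Adcy3 fell by 2.62 ± 0.26 (adjusted p = 1.08e-06). The cyclic AMP phosphodiesterase Pde4b had 95.3, 95.5, 98.5 and 105 CPM with TNFα, against 33.8, 36.5, 29.8 and 49.4 CPM with DMSO and rose by 1.4 ± 0.15 (adjusted p = 3.44e-06), without overlap. Ion channels had 7 higher and 3 lower of 34, or 7 and 5 with the block. The gap junction protein connexin 43 (Gja1) rose by 2.42 ± 0.23 (adjusted p = 8.72e-07), the voltage-gated proton channel Hvcn1, which sustains the oxidative burst, rose by 1.32 ± 0.13 (adjusted p = 1.04e-06), and the calcium channel subunit Cacna1d fell by 1.75 ± 0.21 (adjusted p = 7.9e-06).

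Cytokine receptors had 15 higher and 8 lower of 50 tested, with 13 lower under the replicate block. Fas, a death receptor, had 101, 80.6, 97.5 and 64.5 CPM with TNFα, against 19.2, 20.5, 20.8 and 18.6 CPM with DMSO and rose by 2.12 ± 0.19 (adjusted p = 4.42e-07). Csf2rb, the shared β chain for GM-CSF, IL-3 and IL-5, had 104, 98.8, 115 and 113 CPM with TNFα, against 53, 42, 41.2 and 53.7 CPM with DMSO and rose by 1.18 ± 0.15 (adjusted p = 1.62e-05). Tgfbr2, the ligand-binding TGF-β receptor, had 81.5, 93.1, 92.3 and 99.7 CPM with TNFα, against 156, 141, 158 and 170.1 CPM with DMSO and fell by 0.77 ± 0.10 (adjusted p = 1.53e-05). The receptor of CSF1, Csf1r, rose by 0.72 on the log2 scale with an adjusted p of 0.0136 (chosen after its values were seen). Among 25 genes listed as costimulatory and inhibitory ligands, 11 were higher and 7 lower, or 7 higher without the DMSO library numbered 3. The list also holds the proton channel Hvcn1, given above, which is no such ligand and is among the 11. PD-L1 (Cd274), which inhibits T cells, had 574, 594, 564 and 439 CPM with TNFα, against 202, 240.4, 164 and 184 CPM with DMSO and rose by 1.46 ± 0.14 (adjusted p = 1.03e-06), while Havcr2, which encodes TIM-3, fell by 2.31 ± 0.22 (adjusted p = 8.72e-07). Cd83 and Cd86, surface proteins of mature antigen-presenting cells, fell by 2.16 and 1.54 on the log2 scale (chosen after their values were seen). Integrins and adhesion molecules had 13 higher and 6 lower of 42. The tetraspanin Cd82 rose by 1.31 ± 0.13 (adjusted p = 9.28e-07), the semaphorin Sema4a rose by 1.6 ± 0.18 (adjusted p = 5.09e-06) and the adhesion protein Cadm1 fell by 1.46 ± 0.12 (adjusted p = 1.87e-07).

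For MHC class II and its processing, 1 of 10 tested genes was higher and 1 lower (20% called, against 23.4% of all tested genes), with 1 higher and 3 lower under the replicate block, which called 32.0% of all genes. H2-DMb1, which helps load peptide, fell by 0.92 ± 0.16 (adjusted p = 0.000277) and March1, a ubiquitin ligase that removes MHC class II from the surface, rose by 0.90 ± 0.18 (adjusted p = 0.00135). For MHC class I, 7 of 27 were higher and 1 lower. H2-M2, a nonclassical class I gene, had 45.7, 34.7, 62.5 and 37.7 CPM with TNFα, against 0.683, 0.493, 0.492 and 0.936 CPM with DMSO and rose by 6.12 ± 0.64 (adjusted p = 2.14e-06). The proteasome activator subunit Psme2 had 475, 389, 480.2 and 421 CPM with TNFα, against 270.4, 273, 257 and 283 CPM with DMSO and rose by 0.71 ± 0.10 (adjusted p = 3.23e-05), and Mr1, which presents vitamin B metabolites, fell by 1.09 ± 0.18 (adjusted p = 0.000174). Of 67 interferon-stimulated genes, 7 were higher, close to the 10.9% of all tested genes, 1 was lower and the median change was 0.00. With the replicate block 13 were higher and 12 lower, against 15.1% and 16.9% of all genes in that fit. Without the DMSO library numbered 1, 11 were higher, and without the library numbered 3 of either group or the TNFα library numbered 1, 4 were. The lower count was 3 without the TNFα library numbered 1, 2 without the DMSO library numbered 4 and 7 with limma-voom. The DNA sensor relative Ifi205 had 47.3, 80.4, 43.5 and 21.1 CPM with TNFα, against 10.1, 15.2, 4.16 and 3.69 CPM with DMSO and rose by 2.53 ± 0.47 (adjusted p = 0.000594). The GTPase Gbp2 had 76.5, 42, 71.5 and 49.5 CPM with TNFα, against 32.4, 20.1, 18.3 and 21.3 CPM with DMSO and rose by 1.38 ± 0.27 (adjusted p = 0.000919). Slfn9, of the Schlafen family, had 7.16, 5.15, 5.75 and 5.45 CPM with TNFα, against 29.4, 18.5, 22.2 and 20.3 CPM with DMSO and fell by 1.94 ± 0.32 (adjusted p = 0.000216). The Ifi200, H2 and Schlafen families share sequence, so their unique reads may be incomplete. The interferon-stimulated response element GAAANNGAAA was in 59.3% of 54 promoters of the interferon list, against 3.32% of those of tested genes and 3.52% of all promoters in the table. Mean GC content was 48.7% in the interferon list promoters and 60.8% in the tested promoters. The element was in 4.6% of 391 promoters of genes called at least 2-fold higher and in 5.12% of 547 of those at least 2-fold lower. The naming rule prints the stretch upstream of Saa3 (chr7:46715737-46715856, minus strand, GRCm38.p6), where the element's match starts 125 bases before the start site.
Saa3: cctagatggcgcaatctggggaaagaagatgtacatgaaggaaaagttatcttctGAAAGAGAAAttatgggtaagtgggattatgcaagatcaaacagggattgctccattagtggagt

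Death and survival genes were higher more often than lower. Of 41 in the apoptosis list, 16 were higher and 6 lower. The early-response survival gene Ier3 had 65.2, 66.7, 83.4 and 79 CPM with TNFα, against 13, 12.6, 11.2 and 16.8 CPM with DMSO and rose by 2.46 ± 0.15 (adjusted p = 5.32e-09). The stress-inducible mTORC1 inhibitor Sesn1, a p53 target, had 53.9, 60.3, 48.6 and 57.2 CPM with TNFα, against 114, 102, 125 and 142 CPM with DMSO and fell by 1.14 ± 0.13 (adjusted p = 4.62e-06). Cdkn1a, the cell cycle inhibitor p21 and another p53 target, had 763, 644, 814 and 1035 CPM with TNFα, against 458, 429, 434 and 638 CPM with DMSO and rose by 0.73 ± 0.18 (adjusted p = 0.00542). Among 24 inflammasome, pyroptosis and necroptosis genes, 9 were higher and 5 lower, the lower ones being 3 without the DMSO library numbered 1 or 3 and 2 with both libraries numbered 4 left out. The sensor Nlrp3 had 80, 92.7, 116 and 104 CPM with TNFα, against 26, 20.3, 26.4 and 34.8 CPM with DMSO and rose by 1.87 ± 0.23 (adjusted p = 1.08e-05). Naip2, which detects a bacterial secretion protein, had 196, 224, 213 and 187 CPM with TNFα, against 81.4, 90.3, 70.9 and 75.3 CPM with DMSO and rose by 1.37 ± 0.10 (adjusted p = 7.21e-08). The ATP-gated channel P2rx7, which activates NLRP3, had 24.9, 19, 25.2 and 27 CPM with TNFα, against 43, 36.3, 46.9 and 53.3 CPM with DMSO and fell by 0.90 ± 0.13 (adjusted p = 6.96e-05).

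Cell cycle genes were mostly lower. Of 82 tested genes of mitosis and cytokinesis, 0 were higher and 74 lower, with a median change of -2.07, and of 54 genes of replication licensing and the fork, 0 were higher and 44 lower, with a median of -1.33. Of 49 genes of homologous recombination and DNA damage response, 0 were higher and 26 lower. In these 3 lists 0 genes were higher at an unadjusted p under 0.05, by DESeq2 or by limma-voom. Genes near 0 with TNFα can pass the filter used here through other groups in which they are higher. A filter that asks for at least 10 counts in each of the 8 libraries drops such genes. With it, 49 mitosis and 13 recombination genes were called lower, in a fit that called 1337 of 11003 genes lower. The number of members still tested is not given here, so these counts are not shares of the lists. The levels were low in both groups, the mitosis list taking 0.0379 ± 0.000806% of the reads with TNFα and 0.0756 ± 0.0123% with DMSO (SD, n = 4 each). In bulk RNA, fewer dividing cells and less of these messages per cell cannot be told apart. Mcm2 and Mcm5, subunits of the replicative helicase, were both lower. Mcm2 had 4.77, 6.04, 4.86 and 6.71 CPM with TNFα, against 28.2, 25, 31.2 and 32.1 CPM with DMSO. Mcm5 had 2.56, 2.75, 3.19 and 2.32 CPM with TNFα, against 13.9, 14.3, 22.5 and 16.6 CPM with DMSO. Mcm2 fell by 2.38 ± 0.17 (adjusted p = 2.9e-08) and Mcm5 fell by 2.63 ± 0.20 (adjusted p = 6.74e-08), with no overlap. Cdk1, the kinase that starts mitosis, had 8.64, 9.52, 9.6 and 8.4 CPM with TNFα, against 27.8, 25.8, 38.8 and 34.3 CPM with DMSO, and Racgap1, of the central spindle, had 1.25, 1.82, 1.68 and 1.11 CPM with TNFα, against 8.3, 6.55, 10.7 and 8.95 CPM with DMSO. Cdk1 fell by 1.81 ± 0.14 (adjusted p = 7.54e-08) and Racgap1 fell by 2.54 ± 0.22 (adjusted p = 2.66e-07). The chromatin remodeller Hells fell by 2.32 ± 0.27 (adjusted p = 7.3e-06). Among 36 genes of G1/S control, 2 were higher and 17 lower. The D-type cyclin Ccnd1, which responds to growth factors, had 29, 29, 42.6 and 25 CPM with TNFα, against 167, 164, 281 and 212 CPM with DMSO, and Ccna2, the S phase cyclin, had 0.966, 1.42, 0.592 and 1.06 CPM with TNFα, against 13.2, 7.19, 17.8 and 16.8 CPM with DMSO. Ccnd1 fell by 2.71 ± 0.23 (adjusted p = 1.82e-07) and Ccna2 fell by 3.79 ± 0.44 (adjusted p = 5.95e-06). The 2 members called higher are both inhibitors of cyclin-dependent kinases, Cdkn1a, given above, and Cdkn2b, with 22, 27, 27.8 and 25.3 CPM with TNFα, against 1.94, 5.62, 3 and 3.28 CPM with DMSO. Cdkn2b, which encodes p15, rose by 2.88 ± 0.22 (adjusted p = 7.59e-08), and all TNFα libraries were above all DMSO libraries.

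Genes of nucleotide synthesis had calls in both directions. Of 35 tested genes, 6 were higher and 7 lower, or 10 and 8 with the replicate block. Rrm1, a subunit of ribonucleotide reductase, fell by 1.64 ± 0.15 (adjusted p = 3.73e-07). Atic, which closes the purine ring, was higher, with 71.5, 86.5, 80.8 and 94.6 CPM with TNFα, against 46.6, 60.6, 50 and 53.9 CPM with DMSO, and rose by 0.66 ± 0.13 (adjusted p = 0.00103). Of 50 listed histone and chromatin protein genes, 23 were under the filter and 27 were tested, with 2 higher and 8 lower. Of the 2 higher, 1 was lost without the DMSO library numbered 1, 3 or 4 or the TNFα library numbered 1, 2 or 4. Histone genes taken by symbol had 2 of 21 higher (9.52%) and 3 lower (14.3%), near the 10.9% and 12.4% of all tested genes. The linker histone Hist1h1c fell by 0.91 ± 0.18 (adjusted p = 0.000911) and the variant H2afv fell by 0.95 ± 0.20 (adjusted p = 0.00153), while H3f3a, which encodes the replication-independent variant H3.3, had 357, 316, 341 and 372 CPM with TNFα, against 254, 221, 237 and 281 CPM with DMSO and rose by 0.48 ± 0.10 (adjusted p = 0.00135).

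Promoters of the cell cycle genes hold known elements, which are shown for Mcm5 (chr8:75109301-75109418, plus strand) and Cdk1 (chr10:69352922-69353038, minus strand), from RefSeq on build GRCm38.p6. The capitals mark the E2F elements TTTGGCGC and TTTCGCGC in Mcm5, where 2 matches on opposite strands overlap from 153 bases before the start site, and the cell cycle homology region TTTGAA in Cdk1, with 2 matches, the first 71 bases before it.
Mcm5: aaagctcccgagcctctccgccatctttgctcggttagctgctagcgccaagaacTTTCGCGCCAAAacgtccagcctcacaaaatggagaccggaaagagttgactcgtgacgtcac
Cdk1: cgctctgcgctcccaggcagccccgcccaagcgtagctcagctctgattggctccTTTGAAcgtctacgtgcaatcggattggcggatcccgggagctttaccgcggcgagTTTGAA
On both strands, an E2F element was in 24.4% of 45 replication promoters, against 1.64% of 9289 tested and 0.836% of all 27025 promoters. The cell cycle homology region was in 66.7% of 72 mitosis promoters, against 12% of tested and 18.1% of all promoters. It was also in 31.5% of 54 interferon list and 20% of 15 chemokine promoters, and in 6.45% to 16.7% of the other lists searched. Mean GC content was 48.7% in the interferon list and 53.2% in the chemokine promoters. Mean GC content was 59.6% in the replication, 58.8% in the mitosis and 60.8% in the tested promoters. For the cell cycle homology region the naming rule picks Dab2, which belongs to no cell cycle list and is not printed; Cdk1, Nfkbie and Gsta3 were chosen after their values were seen, as the members of their lists with the element and the smallest adjusted p.

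**Figure D3:**
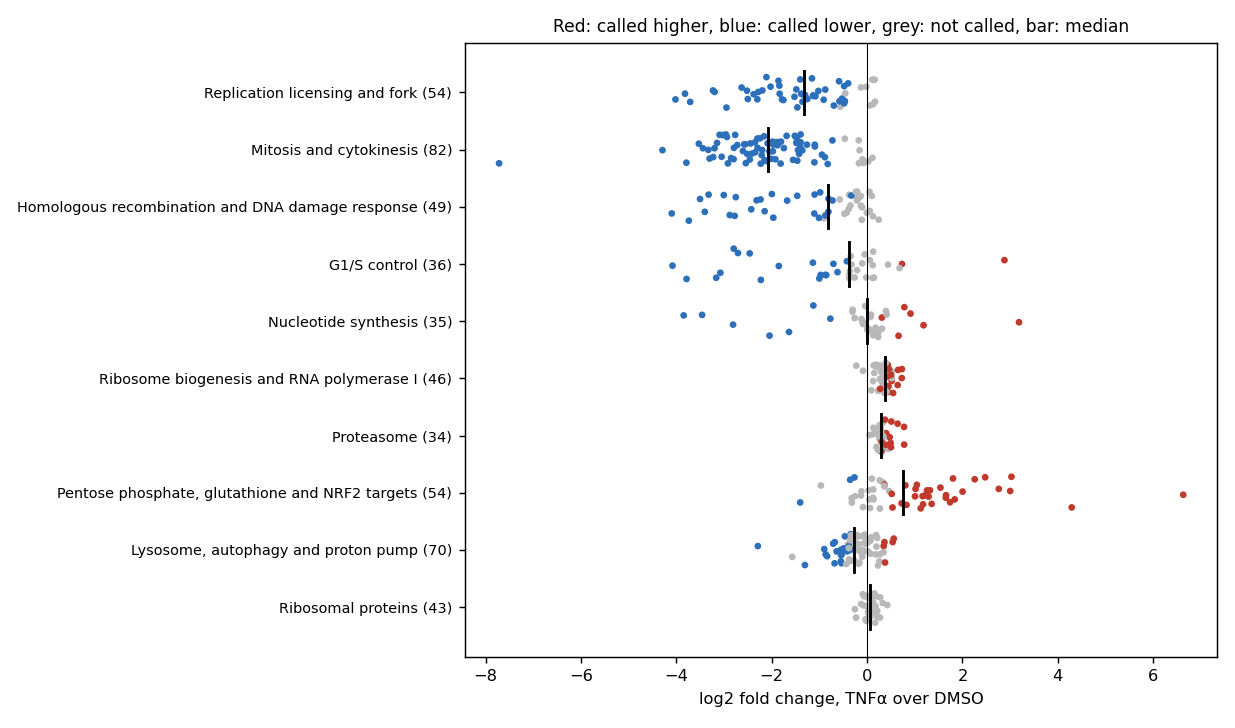
Each point is a tested gene of 1 of 10 lists (rows, number of tested genes in brackets), at its log2 fold change of TNFα over DMSO; red was called higher, blue lower, grey not called, and the black bar is the median. The medians run from -2.07 for mitosis to 0.76 for the glutathione and NRF2 list, and ribosomal protein genes sit near 0.

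Genes of defence against oxidants were mostly higher. Of 54 tested genes of the pentose phosphate pathway, glutathione synthesis and NRF2 targets, 31 were higher and 3 lower, with a median change of 0.76, and 29 of the 31 held in every fit that left out 1 library. The lower count was 1 without the TNFα library numbered 2 or the DMSO library numbered 3. The list took 3.61 ± 0.258% of the reads with TNFα and 1.78 ± 0.37% with DMSO (SD, n = 4 each). Strongly expressed genes such as Prdx1 and Hmox1 weigh heavily in this share, which was not computed without them. Slc7a11, the cystine importer that feeds glutathione synthesis, had 539, 493, 531 and 444 CPM with TNFα, against 29.2, 36.7, 18.9 and 17.8 CPM with DMSO and rose by 4.29 ± 0.26 (adjusted p = 6.03e-09). Gclc, the rate-limiting enzyme of that synthesis, rose by 3 on the log2 scale with an adjusted p of 9.16e-07, and Nqo1, a quinone reductase, by 2.26 with an adjusted p of 8.38e-06 (both chosen after their values were seen). Hmox1, which degrades heme, had 3399, 4492, 4247 and 3796 CPM with TNFα, against 1049, 1836, 1060.0 and 1116 CPM with DMSO and rose by 1.65 ± 0.19 (adjusted p = 6.03e-06). Sqstm1, the autophagy receptor p62, had 1303, 1548, 1581 and 1659.8 CPM with TNFα, against 337, 581, 351 and 437 CPM with DMSO and rose by 1.84 ± 0.22 (adjusted p = 9.79e-06). The DMSO library numbered 2 was the highest DMSO library for Hmox1, Sqstm1 and Prdx1, and all TNFα libraries were above it. Sod2, the mitochondrial superoxide dismutase and a known NF-κB target, rose by 2.76 ± 0.19 (adjusted p = 2.29e-08), and the alcohol dehydrogenase Adh7 rose by 6.63 ± 0.43 (adjusted p = 1.31e-08). The Adh7 level with DMSO rests on 1 to 5 reads a library, and the ratio of the groups' pooled CPM, 100.1, has an exact 95% counting interval of 55.8 to 201. Gsta3, a glutathione S-transferase, had 102, 88.4, 99.2 and 73.7 CPM with TNFα, against 18.9, 34.2, 21.8 and 15.8 CPM with DMSO and rose by 2 ± 0.21 (adjusted p = 1.79e-06), whereas Mgst3, a microsomal enzyme of the same activity, had 11, 11.7, 13.5 and 11.8 CPM with TNFα, against 29.7, 30.2, 35.4 and 31.8 CPM with DMSO and fell by 1.4 ± 0.14 (adjusted p = 8.55e-07). The antioxidant response element TGACNNNGC, searched on both strands, was in 22.9% of 48 promoters of the list, 15% of those of tested genes and 12.4% of all promoters. It was commoner in 2 other lists searched, at 29% of 31 ribosomal protein and 25% of 24 TNF receptor complex promoters. In the remaining lists searched it was in 6.25% to 18.5%. It is shown in capitals upstream of Gsta3 (chr1:21240409-21240527, plus strand, GRCm38.p6), starting 121 bases before the start site; the rule's own pick, Naip2, belongs to another list and is not printed.
Gsta3: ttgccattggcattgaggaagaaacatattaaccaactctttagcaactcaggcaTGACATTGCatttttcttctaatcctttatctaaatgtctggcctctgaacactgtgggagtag

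The list of iron, heme and copper genes shares Hmox1 with that group. Of 32 tested, 15 were higher and 5 lower, and 9 of the 15 held in every fit that left out 1 library. Lcn2, which binds bacterial iron carriers, had 19.9, 12.2, 23.3 and 25.8 CPM with TNFα, against 1.42, 1.82, 1.34 and 1.2 CPM with DMSO and rose by 3.81 ± 0.30 (adjusted p = 8.46e-08). Slc39a8, a zinc and iron importer, had 6.14, 5.59, 6.54 and 5.02 CPM with TNFα, against 15.2, 13.2, 17.5 and 12.7 CPM with DMSO and fell by 1.33 ± 0.17 (adjusted p = 1.46e-05). The transferrin receptor Tfrc fell by 1.11 on the log2 scale (chosen after its values were seen). Amino acid metabolism of activated macrophages had more higher than lower calls, with 8 of 25 genes higher and 1 lower. With at least 10 counts required in every library, which drops members near 0 in either group, 5 were called higher. That fit called 1198 of 11003 genes higher. The list's share of reads was 0.577 ± 0.0404% with TNFα and 0.198 ± 0.00935% with DMSO (SD, n = 4 each). Acod1 alone made up 78.0% of that difference, and without it the share was 0.269 ± 0.00474% with TNFα and 0.185 ± 0.00595% with DMSO. Acod1, which makes itaconate, had 2928, 2645, 3529 and 3548 CPM with TNFα, against 122, 155, 77.8 and 148 CPM with DMSO. Acod1 rose by 4.65 ± 0.31 (adjusted p = 2.26e-08), and the groups were far apart. Ass1, which regenerates arginine from citrulline, rose by 2.48 on the log2 scale, and Cd38, which breaks down NAD, by 3.21 (both chosen after their values were seen). Nampt, which salvages nicotinamide, had 652, 593, 603 and 431 CPM with TNFα, against 207, 233, 173 and 136 CPM with DMSO and rose by 1.61 ± 0.17 (adjusted p = 2.48e-06). Nos2, the inducible nitric oxide synthase, had 1.25, 0.687, 1.22 and 1.98 CPM with TNFα, against 0.105, 0.0493, 0.0894 and 0.104 CPM with DMSO. It rose by 3.8 ± 0.65 (adjusted p = 0.000296); its DMSO levels rest on 1 or 2 reads a library, and the ratio of the groups' pooled CPM, 14.1, has an exact 95% counting interval of 6.62 to 35.9. Arg1 was under the filter on low counts. The polyamine-degrading enzyme Sat1 fell by 0.44 ± 0.12 (adjusted p = 0.0105).

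Glycolysis had 14 of 31 genes higher and 2 lower, with 9 higher when both libraries numbered 4 were left out and 5 lower with the replicate block; the lower count was 1 without the TNFα library numbered 1 or 2 or the DMSO library numbered 4. The glucose transporter Slc2a1 had 163, 166, 186 and 205 CPM with TNFα, against 62.7, 78.7, 61.5 and 85.6 CPM with DMSO and rose by 1.32 ± 0.15 (adjusted p = 4.13e-06). Pgk1, which makes the first ATP of the pathway, had 363, 312, 429 and 427 CPM with TNFα, against 208, 217, 215 and 187 CPM with DMSO and rose by 0.89 ± 0.12 (adjusted p = 2.09e-05), and Aldoa rose by 0.63 ± 0.17 (adjusted p = 0.013). Hypoxia-response genes had 10 higher and 4 lower of 22, the lower ones being 2 without the TNFα library numbered 1 or the DMSO library numbered 2. The peptide hormone gene Adm rose by 2.91 ± 0.29 (adjusted p = 1.38e-06) and the MYC antagonist Mxi1 fell by 0.72 ± 0.20 (adjusted p = 0.0151). The tricarboxylic acid cycle and respiratory chain had 2 higher and 3 lower of 55, below the shares of all tested genes; the 3 lower calls held in each fit that left out 1 library, and the 2 higher ones did not. Mdh1, which moves reducing equivalents through malate, had 219.9, 209, 218 and 202 CPM with TNFα, against 334, 307, 348 and 327 CPM with DMSO and fell by 0.63 ± 0.08 (adjusted p = 1.23e-05). Idh2, of mitochondrial isocitrate oxidation, fell by 0.56 ± 0.12 (adjusted p = 0.00159).

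Of 48 genes of cholesterol export and lipid handling, 5 were higher (10.4%, near the 10.9% of all tested genes) and 13 lower (27.1%, against 12.4%). Acsl1, which activates long-chain fatty acids, had 352, 355, 424 and 312 CPM with TNFα, against 47.4, 60.5, 49.8 and 52.2 CPM with DMSO and rose by 2.78 ± 0.17 (adjusted p = 6.03e-09). Nceh1, which hydrolyses cholesteryl ester, had 146, 144, 143 and 121 CPM with TNFα, against 307, 314, 322 and 245 CPM with DMSO and fell by 1.1 ± 0.11 (adjusted p = 8.15e-07), and Cyp27a1, a sterol 27-hydroxylase, fell by 1.9 ± 0.16 (adjusted p = 1.98e-07). Apolipoprotein E, an export acceptor of such cells, is deleted in both groups. Cholesterol synthesis had 2 higher and 1 lower of 36, but 11 higher and 2 lower with the replicate block and 12 higher without the DMSO library numbered 4; without the TNFα library numbered 2 or 3 the higher ones were 4 or 1 and the lower ones 0, and without the TNFα library numbered 4 the lower ones were 2.

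Of 46 genes of ribosome biogenesis and RNA polymerase I, 16 were higher and 0 lower (1 at an unadjusted p under 0.05 and by limma-voom, 0 by DESeq2) with a median of 0.38. The higher count was 28 with the replicate block, which called 15.1% of all genes higher, and 10 without the DMSO library numbered 1. Polr1e, an RNA polymerase I subunit, had 16.1, 16, 16.4 and 15.6 CPM with TNFα, against 8.62, 10.4, 10.8 and 8.74 CPM with DMSO and rose by 0.73 ± 0.11 (adjusted p = 8.68e-05), and the processing factor Utp4 rose by 0.73 ± 0.13 (adjusted p = 0.000401). The ribosomal proteins themselves had 0 of 43 called in edgeR's quasi-likelihood test with a median of 0.06. At an unadjusted p under 0.05, 1 was higher and 1 lower; DESeq2 called 1 higher, limma-voom 2 higher and 1 lower. The translation factor Eef1a1, listed with them, changed by -0.00 ± 0.09, with 3814, 3801, 4137 and 4182 CPM with TNFα, against 3995, 3714, 3985 and 4292 CPM with DMSO. Of 34 proteasome genes, 13 were higher and 0 lower (also at an unadjusted p under 0.05 and by both other tools) with a median of 0.30, against 20 with the replicate block and 6 to 8 without the DMSO library numbered 1, 3 or 4 or the TNFα library numbered 1, 2 or 3. Psmd11, of the lid, had 258, 295, 314 and 289.6 CPM with TNFα, against 153, 179.8, 157 and 186 CPM with DMSO and rose by 0.77 ± 0.11 (adjusted p = 2.84e-05), and Psmc2, an ATPase of the base, rose by 0.78 ± 0.11 (adjusted p = 6.06e-05). Chaperones had 5 higher and 0 lower of 35, near the share of all tested genes, with 3 higher without the TNFα library numbered 1; 1 was lower at an unadjusted p under 0.05 and by limma-voom, 0 by DESeq2, 2 with the replicate block and 1 without the TNFα library numbered 4. The cytosolic chaperone Hsp90aa1 rose by 0.79 ± 0.16 (adjusted p = 0.00125). ATF4 targets had 6 higher and 0 lower of 33, or 10 and 1 with the block, and 1 was lower at an unadjusted p under 0.05, by DESeq2 and by limma-voom. Slc3a2, the partner chain of the SLC7A11 transporter, had 275, 293, 314 and 369.6 CPM with TNFα, against 176, 196, 159.9 and 175 CPM with DMSO and rose by 0.83 ± 0.13 (adjusted p = 0.000115).

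Lysosomal genes were lower more often than higher, by small steps. Of 70 genes of lysosome, autophagy and the proton pump, 5 were higher and 21 lower, with a median of -0.27, and 18 of the 21 held in every fit that left out 1 library; of the 5 higher genes, 2 held, and 2 or 3 were called without the DMSO library numbered 3 or 4, the TNFα library numbered 1 or 3, or both libraries numbered 4. The list took 3.21 ± 0.0573% of the reads with TNFα and 4.27 ± 0.117% with DMSO (SD, n = 4 each). Arsb, which removes sulfate from glycosaminoglycans, had 20.2, 16.4, 18.9 and 15.4 CPM with TNFα, against 50.5, 35.8, 46.5 and 42.2 CPM with DMSO, and Man2b1, a lysosomal mannosidase, had 156, 165, 178 and 194 CPM with TNFα, against 319, 274, 322 and 379 CPM with DMSO. Arsb fell by 1.3 ± 0.13 (adjusted p = 1.67e-06) and Man2b1 fell by 0.90 ± 0.12 (adjusted p = 2e-05), without overlap between the groups. The osteoclast-type pump subunit Atp6v0d2 had 26.7, 21.7, 25.9 and 10.4 CPM with TNFα, against 121, 85.1, 145 and 63.8 CPM with DMSO and fell by 2.29 ± 0.32 (adjusted p = 3.7e-05), while the general subunit Atp6v0b had 226, 212, 244 and 233 CPM with TNFα, against 149.6, 159, 156 and 157 CPM with DMSO and rose by 0.56 ± 0.08 (adjusted p = 5.68e-05). The cytoskeleton had 12 higher and 10 lower of 66. Cdc42ep2, an effector of CDC42, had 36.5, 43.3, 49 and 70.2 CPM with TNFα, against 3.68, 7.05, 4.96 and 8.11 CPM with DMSO and rose by 3.06 ± 0.27 (adjusted p = 3.28e-07), and Stmn1, which destabilises microtubules and is high in dividing cells, had 1.82, 2.36, 3.22 and 1.54 CPM with TNFα, against 13.9, 8.62, 16.4 and 14.5 CPM with DMSO and fell by 2.55 ± 0.28 (adjusted p = 3.58e-06).

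**Figure D4:**
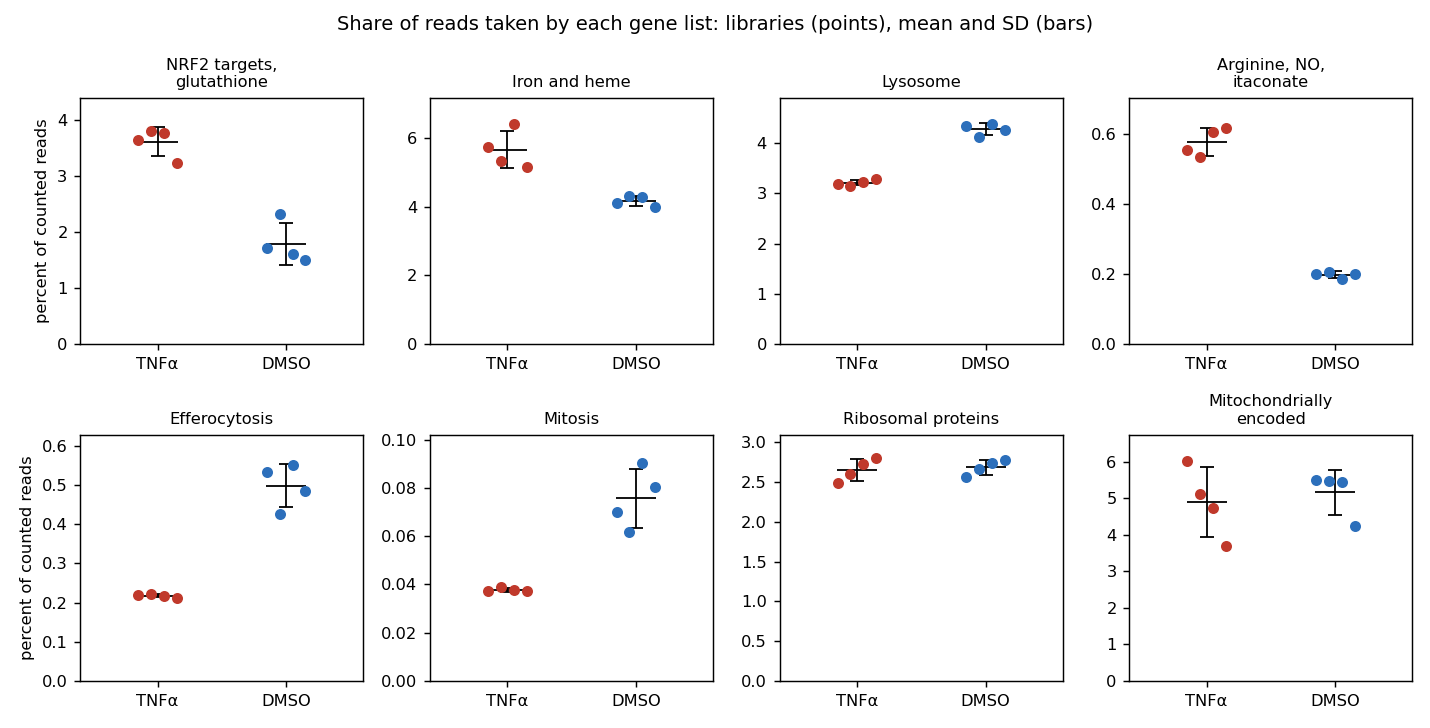
Share of counted reads, in percent on linear axes from 0, taken by 8 gene lists in each TNFα library (red, left) and DMSO library (blue, right), with mean and SD of 4 libraries. The glutathione and NRF2 list stood at 3.61% with TNFα and 1.78% with DMSO, the efferocytosis list at 0.218% with TNFα and 0.499% with DMSO, and ribosomal and mitochondrially encoded transcripts overlapped.

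Gene families taken by symbol gave a view that rests on no pathway list. Of 194 solute carriers, 36 were higher and 31 lower; the proton exchanger Slc9a9 fell by 2.25 ± 0.18 (adjusted p = 1.03e-07). Kinesins, many of which serve the spindle, had 2 of 32 higher and 18 lower. With at least 10 counts required in every library, 17 were tested, 2 being higher and 6 lower. Kif2a rose by 0.90 ± 0.16 (adjusted p = 0.000503) while Kif13b fell by 0.54 ± 0.13 (adjusted p = 0.00648), Kif13b with overlapping groups. Mitochondrial ribosomal proteins had 10 of 77 higher and 0 lower (1 at an unadjusted p under 0.05 and by limma-voom, 0 by DESeq2), with 16 higher under the replicate block, and Mrpl52 rose by 0.94 ± 0.11 (adjusted p = 4.72e-06). Cytosolic ribosomal proteins had 0 of 78 called by edgeR's quasi-likelihood test; 1 was higher and 1 lower at an unadjusted p under 0.05, DESeq2 called 2 higher, limma-voom 4 higher and 1 lower, and the replicate block 1 higher and 1 lower, or 16 higher and 3 lower in the 8 libraries alone. Zinc finger genes named Zfp had 13 of 319 higher and 24 lower, both shares below those of all tested genes; 6 to 8 were higher without the DMSO library numbered 1, 3 or 4 or the TNFα library numbered 3, 15 were lower without the DMSO library numbered 1, and 21 were higher and 41 lower with the replicate block. Of them Zfp811 rose by 0.82 ± 0.13 (adjusted p = 0.000152). Among ABC transporters, Abcc4, which exports eicosanoids and cyclic nucleotides, rose by 1.15 ± 0.10 (adjusted p = 4.14e-07), and Abcg3 fell by 3.79 ± 0.33 (adjusted p = 2.33e-07). In the MS4A cluster, Ms4a6d rose by 1.05 ± 0.15 (adjusted p = 3.37e-05) and Ms4a7 fell by 0.56 ± 0.10 (adjusted p = 0.000637). Among protein tyrosine phosphatases, Ptpn1, which dephosphorylates JAK kinases, rose by 1.3 ± 0.14 (adjusted p = 3.38e-06), and the receptor type Ptpra fell by 0.66 ± 0.11 (adjusted p = 0.000146). Plxnc1, a semaphorin receptor, fell by 1.27 ± 0.15 (adjusted p = 9.55e-06). Trim13, a ubiquitin ligase of the endoplasmic reticulum, rose by 1.55 ± 0.18 (adjusted p = 6.03e-06), and Rab20, a GTPase of phagosome maturation, rose by 1.25 ± 0.20 (adjusted p = 0.000131). Of 18 cytosolic aminoacyl-tRNA synthetases, 3 were higher, or 9 with the replicate block, and Eprs rose by 0.76 ± 0.11 (adjusted p = 4.27e-05). Serpins had 7 of 15 higher and 3 lower. Serpinb9b rose by 1.4 ± 0.37 (adjusted p = 0.01), its groups overlapping, and Serpinb6b fell by 1.62 ± 0.22 (adjusted p = 2.45e-05). Of the 12 macrophage markers, 1 was higher (8.33%) and 4 were lower (33.3%), against 10.9% and 12.4% of all tested genes. Their log2 fold changes ran from -1.76 to 0.72. All 4 lower calls held in each fit that left out 1 library, and 3 markers were higher with the replicate block. Of the markers of other lineages that passed the filter, 1 of 3 neutrophil genes was higher, 3 of 4 lymphocyte genes were lower, and of 7 osteoclast genes 1 was higher and 1 lower, or 3 lower with the replicate block. The 3 lower lymphocyte genes were Cd4, at 5.81 CPM with TNFα and 11.7 CPM with DMSO, Cd79b, at 17.8 CPM with TNFα and 31.7 CPM with DMSO, and Ighm, at 20.6 CPM with TNFα and 48 CPM with DMSO (means, chosen after their values were seen). Each of the stromal and the erythroid and megakaryocyte lists had 1 of 2 higher, and the dendritic and mast cell lists had 0 calls among 2 and 1. Acta2 among stromal genes, with 14, 14.4, 17.6 and 14.3 CPM with TNFα, against 7.99, 10.6, 8.67 and 10.8 CPM with DMSO, rose by 0.67 ± 0.17 (adjusted p = 0.00813), and the megakaryocyte and macrophage chemokine Pf4 changed by 0.16 ± 0.20 (adjusted p = 0.63). Csf3r, the G-CSF receptor listed with the neutrophil genes, changed by 0.58 ± 0.24 (adjusted p = 0.0879); it was called by limma-voom (adjusted p = 0.0314), without a filter on low counts, with the replicate block (adjusted p = 0.00672), without the TNFα library numbered 2 (adjusted p = 0.0403) and without the DMSO library numbered 4 (adjusted p = 0.0188), and in each of these 2 of the 3 neutrophil genes were higher. Il7r, listed with the lymphocyte genes, changed by 0.07 ± 0.31 (adjusted p = 0.918).

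**Figure D5:**
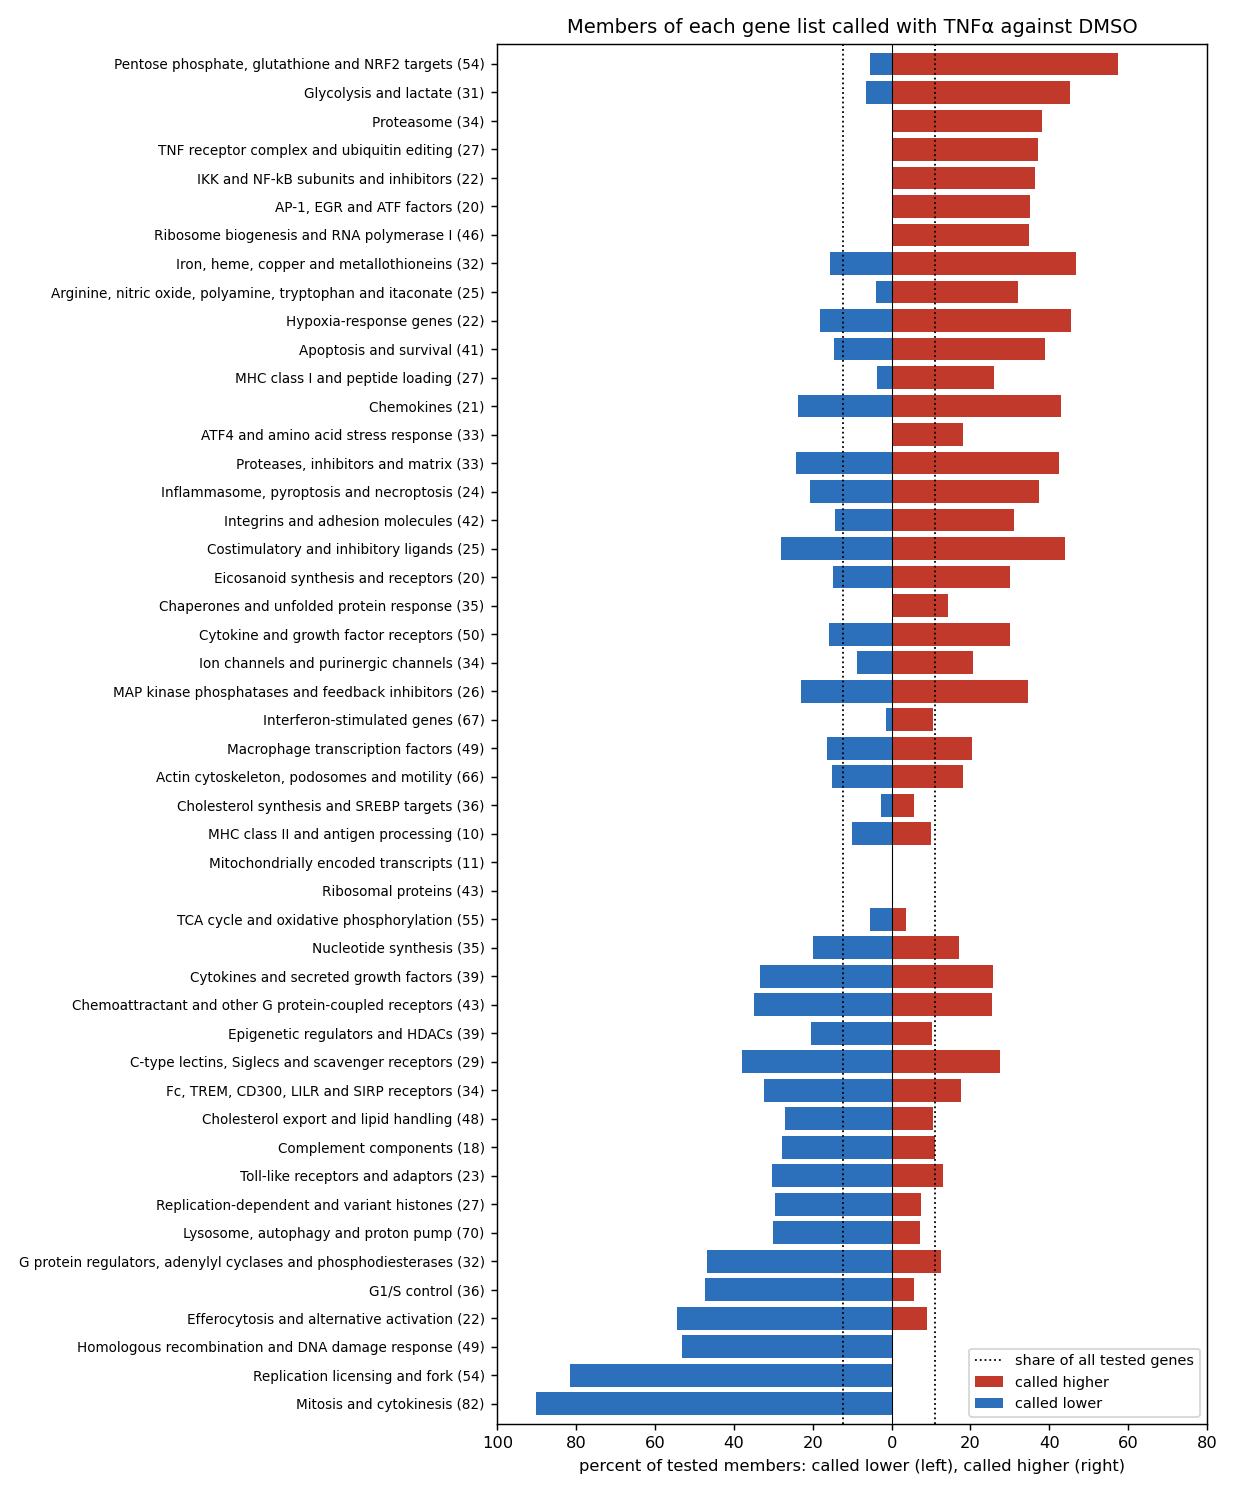
Percent of the tested members of 48 gene lists (number in brackets) called lower (blue, to the left) and higher (red, to the right) with TNFα against DMSO, ordered by the difference. The dotted lines mark the shares of all 12612 tested genes, 12.4% lower and 10.9% higher; mitosis, replication and recombination stand at the lower end and the glutathione and NRF2 list at the higher end.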

How the data were processed

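The deposited files hold, per the labels, RNA-seq counts that the authors made per gene with STAR, version 2.6.1d in the submitters' processing notes, which also name the builds mm10 and GRCm38; the annotation release is not given in the sources used here. Of the count columns in each file, the one for the strand opposite to the read was used, since it held 26.3 or more times the reads of the other strand in these 8 libraries. STAR counts only reads that map to 1 place, so genes with near-identical copies lose reads. Reads outside genes, on several genes, mapping to several places or unmapped were left out of library sizes; reads mapping to several places were 10.6 to 12% of each of these libraries.

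All 16 libraries were fitted together in edgeR 4.0.16 (R 4.3.3) with 1 mean per group, trimmed mean of M values (TMM) scaling, the filterByExpr filter and the quasi-likelihood F test, with Benjamini-Hochberg adjustment over 12612 genes and a threshold of 0.05. Every adjusted p in the text is from this test unless another is named. Depth sets a floor of 3 reads, 0.095 to 0.162 CPM. Intervals and floors cover counting error only. The script was tested on simulated data. Alternatives were DESeq2 1.42.0 size factors or test, limma 3.58.1 voom, other filters and libraries, unstranded counts and the replicate number as a block. TNFα and DMSO libraries of equal number deviated together, with correlations of 0.436, 0.476, 0.33 and 0.681 against at most 0.08 for other pairs. The replicate block therefore takes the numbers to pair the samples. This pairing rests on the data, since the labels do not say what a number shares. The main fit, which gives the calls, SE and adjusted p in the text unless another is named, does not pair them.

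The gene lists and alternatives were chosen with earlier results of these data known. Named genes came from a rule: from each list, members called in all 8 fits that left out 1 library and averaging 5 CPM or more, up to 2 with the smallest adjusted p in the commoner direction and 1 in the other; the 10 largest gains and losses in CPM; a fixed set; and 1 gene per direction from each symbol family. Genes outside it are marked in the text, and some that it picks are not reported here. No set test was run. Promoters and motifs were matched by gene in the RefSeq table, which held 9289 of the tested genes.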

Additional observations from a re-analysis of the deposited data

Results flagged for a closer look

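In 184 named genes the 4 libraries of each group were searched for a library that stood far from the other 3, by whether its gap to the nearest library, divided by the group's range, passed Dixon's 95% critical value. Of 368 groups of 4, 20 passed, and chance gives about 1 in 20 groups. The flags were uneven over libraries: 8 were in the DMSO library numbered 4 and 5 in the TNFα library numbered 4, against 0 to 2 in each of the other 6.

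Among TNFα libraries, number 4 stood highest for C1qa (ratio 0.876), for the connexin gene Gja1 (0.874), for the linker histone gene Hist1h1c (0.851) and for Tnfrsf13b, which encodes the receptor TACI, (0.929), and lowest for Nceh1 (0.893). The TNFα library numbered 3 stood highest for Cd82 (0.851) and Acta2 (0.905), and number 1 for Cadm1 (0.864). Number 2 was lowest for Lyz2 (0.854), with 10056 CPM against 15124 to 15992 CPM in the other TNFα libraries, and for Ccl2 (0.841), with 37.7 CPM against 81.9 to 90.3 CPM in the others.

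Among DMSO libraries, number 4 stood highest for Nfkbia (0.951), at 196 CPM against 121 to 125.0 CPM in the other DMSO libraries, and for Tnf (0.960), at 309.6 CPM against 219 to 223 CPM. It also stood highest for Socs3 (0.915), Cxcl3 (0.841), Cdkn1a (0.863) and Suv39h1 (0.834), and lowest for Lpl (0.907) and the tetraspanin gene Tspan13 (0.867). Nfkbia, Tnf, Socs3 and Cxcl3 were called higher with TNFα, and for each the DMSO library numbered 4 remained below every TNFα library. The DMSO library numbered 2 stood highest for Hmox1 (0.915), at 1836 CPM against 1049 to 1116 CPM, and for Il1f9 (0.972), at 6.95 CPM against 2.34 to 2.47 CPM in the other DMSO libraries.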

How the results depend on the processing

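The count of 1377 higher genes was 2075 with limma-voom and 2938 with the replicate block in a fit of the 8 libraries alone; the 1568 lower genes were 3031 in that fit. The counts stayed within 1.5 times in the other alternatives, including the replicate block with 16 libraries (1901 higher, 2133 lower) and both libraries numbered 4 left out (1135 and 1280), an alternative chosen after seeing the data. Leaving out 1 of the TNFα or DMSO libraries gave 1081 to 1337 higher, 1236 to 1480 lower and 1127 to 1297 genes changed at least 2-fold. The TPCA-1 library numbered 2 had 7489066 counted reads and 44.0% of its reads unmapped, against 4.0 to 7.1% in every other library. Without it in the shared fit, 1639 genes were higher and 1790 lower. The cause of these shifts was not tested. Of the 172 called named genes, 0 changed direction; Fth1 and Lpl lost their call as given above. Beyond the lists above, the replicate block changed no call of a named gene except Ccl2 and Csf3r with 16 libraries, and also Siglecf and Pf4 in the 8 libraries alone.

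The 7 genes whose sign turned were never called. Eef1a1 was 0.0069 with DESeq2 size factors, 0.007 with DESeq2, 0.0029 with limma-voom, 0.001 without a filter, 0.0073 with both libraries numbered 4 left out and -0.0343 to 0.0314 without 1 library. The mitochondrial mt-Co1 was -0.0088 with the replicate block, -0.0049 with it in 8 libraries and -0.1144 to 0.1307 without 1 library. Malat1 was -0.0492 with limma-voom, -0.0125 with both libraries numbered 4 left out and -0.033 to 0.1435 without 1 library. Without 1 library, Lyz2 ranged over -0.0259 to 0.2413, Il7r -0.1233 to 0.3051, Batf3 -0.0675 to 0.4068 and Tnfrsf1a -0.0904 to 0.1697. Of 2128 list counts, 212 moved by over 1.5 times. Depth limits genes near 1 CPM and below, whose median SE was 0.43 for means under 1 CPM and 0.13 at 100 to 1000 CPM.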

Other observations

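Of the 2945 called genes, 743 belong to a list used above and 2202 to none. The genes named here from the rest were chosen after their values were seen, are changes of TNFα over DMSO on the log2 scale, and were called in all 8 fits that left out 1 library. Higher were Ahr, the aryl hydrocarbon receptor, by 3.34, at 22.1 CPM with TNFα and 2.18 CPM with DMSO, and Ednrb, an endothelin receptor, by 2.64, at 389 CPM with TNFα and 62.4 CPM with DMSO. Procr, the endothelial protein C receptor, rose by 2.83 and the caveolae protein gene Cav1 by 3.22. Tarm1, a leukocyte receptor gene, rose by 4.51, and Acss2, which makes acetyl-CoA from acetate, by 2.81. Lower were Entpd1, the ecto-enzyme CD39 that degrades extracellular ATP, which fell by 2.91, at 5.17 CPM with TNFα and 39.0 CPM with DMSO, and Igfbp4, which binds insulin-like growth factors, which fell by 2.18, at 36.1 CPM with TNFα and 164 CPM with DMSO. The chromatin protein gene Hmga2 fell by 2.99, the glycosyltransferase gene Gcnt1 by 2.16, and the cell cycle kinase gene Wee1 by 2.12.

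Some called genes are neighbours. In runs of at least 4 adjacent tested protein-coding genes with the same call, 5 genes from Ppp2cb to Rbpms on chromosome 8 (33599625 to 33929863, GRCm38), which include the glutathione reductase gene Gsr, were higher by 0.46 to 2.04, and 5 genes from Epb41l4b to Ptgr1 on chromosome 4 (56991972 to 58987119), which include the thioredoxin gene Txn1, were higher by 0.73 to 3.31. The 5 genes from Man1c1 to Rsrp1 on chromosome 4 (134561690 to 134927671) were lower, by -0.97 to -0.30. Whether such runs are longer than chance gives was not tested.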
